A study of Mus musculus with 10 samples.

Results

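The circRNAs described here were first listed in the mouse retina at P7 and stayed listed through P14 and P30. They were chosen by their own counts. Each stood at 0 in all 4 libraries of E18.5 and P1, was above 0 in at least 1 of the 2 P7 libraries, and was above 0 in all 4 libraries of P14 and P30. Of 9029 circRNAs in the table, 6365 were above 0 in at least 1 library, and 75 met this rule. These 75 are called P7-onset circRNAs below. Retinae of C57BL/6 mice, with no treatment named in the labels, were sequenced at E18.5 and P1 and then at P7, P14 and P30, from total RNA depleted of ribosomal RNA, with 2 libraries per age. The study describes biological replicates at each timepoint, and more of them than the 2 libraries per age used here. No label ties a library to its animals, so a p-value reflects only how far these libraries spread.

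A circRNA forms when a splice donor joins back to an upstream splice acceptor, which leaves a closed ring without a cap or a poly(A) tail. Such rings lack the free ends at which linear RNA is degraded, and they are known to be abundant in neural tissue. Between P7 and P14 the mouse retina completes its neurogenesis, its photoreceptors grow outer segments and its synaptic layers form, and eyes open close to P14. A library of whole retina averages over all of these cells, so fewer cells of a type and less RNA per cell cannot be told apart.

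The table holds estimated counts in steps of 0.5, and its smallest value above 0 is 2. A circRNA at 0 was therefore under this minimum or not called, and no fold change against E18.5 or P1 is given. Totals of listed counts ran from 6606.5 to 9092 in the E18.5 and P1 libraries, 7426 to 9611 at P7, 11773.5 to 17048 at P14, and 28104.5 to 28658 at P30. The number of circRNAs listed per library ran from 833 to 2800. Levels are given as counts or as CPM, the count as a share of the library's listed counts, scaled so that every library has the same total. The P14 and P30 libraries held more counts than all earlier ones, so a circRNA of constant CPM could pass the minimum there and not before. The P7 totals did not stand apart from those of P1, since P7 replicate 1 held more counts than both P1 libraries and P7 replicate 2 fewer. When every library was scaled down to the smallest total and values under 2 were set to 0, 33 circRNAs met the rule, of which 26 were among the 75. The part of the totals in the onset was not tested further. Of the P7-onset circRNAs, 9 stood under a database ID and 66 under a position. Positions belong to the mm9 build, and the annotation used here is of GRCm38, so none was assigned to a gene and the retinal identity of the libraries was not checked against marker genes.

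As a group, the P7-onset circRNAs took up a larger share of the listed counts at P14 and P30 than at P7. They held 2.98% and 2.93% of counts in the P7 libraries, 5.13% and 5.34% at P14, and 4.73% and 5.03% at P30. The means were 2.95% ± 0.0368, 5.24% ± 0.151 and 4.88% ± 0.208 (SD, n = 2 each), and no P7 library overlapped a later one. The ratio of the P30 share to the P14 share was 0.932. It became 1.06 when the counts of all 75 were divided by those of the 327 circRNAs that passed the low-count filter. That filter belongs to the test below, and only 14 of the 75 passed it. The direction of the ratio thus rests on the denominator. The rule itself asks for less at P7 than later, because a 0 is allowed in 1 P7 library only. The larger share after P7 is thus a description and carries no test. For 41 of the 75 the mean CPM was highest at P14, for 28 at P30 and for 6 at P7. The lean to P14 over P30 in CPM was not particular to them. The median log2 ratio of P30 to P14 was −0.29 for the 75 and −0.32 for all 580 circRNAs above 0 in every P14 and P30 library.

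**Figure D1:**
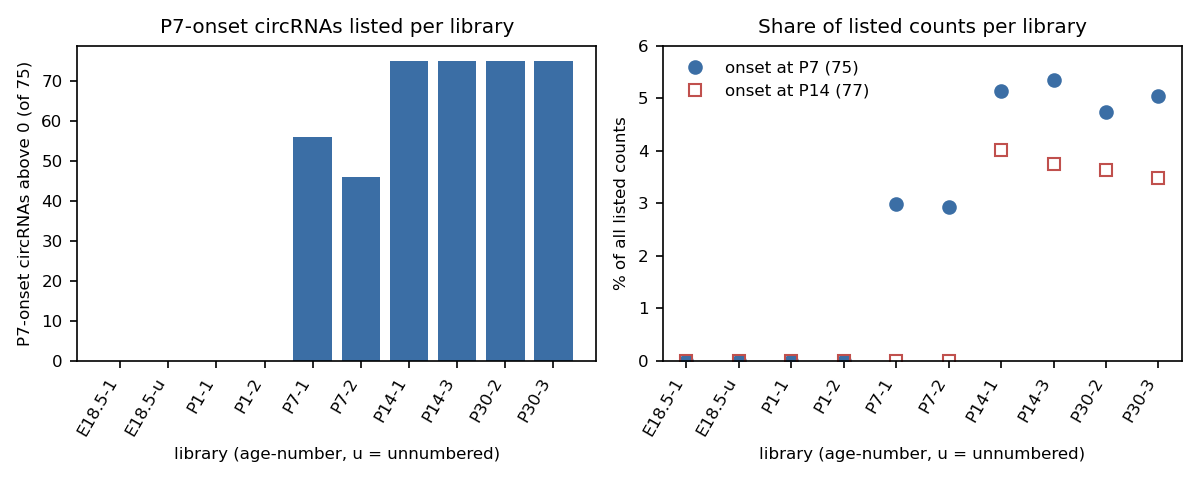
The left panel plots the number of P7-onset circRNAs above 0 in each of the 10 libraries, and the right panel the percent of all listed counts they held (filled circles) beside the 77 circRNAs with onset at P14 (open squares). P7 replicate 1 listed 56 and P7 replicate 2 listed 46 of the 75, and the share lay near 3% in both P7 libraries and near 5% at P14 and P30.

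Single P7-onset circRNAs had few counts. At P7, 27 were above 0 in both libraries, 29 in replicate 1 alone and 19 in replicate 2 alone. The larger of the 2 P7 values had a median of 4 counts and a highest value of 19.5. In the P14 libraries the median was 5.5 and 7.5 counts, and in the P30 libraries 12 and 11.5. Over all circRNAs listed in a library, also those listed in that library alone, the median was 4.5 in both P14 libraries and 4.5 and 5 in the P30 libraries. Only 16 of the 75 reached 10 counts in all 4 libraries of P14 and P30. The 10 most abundant, ranked by mean CPM over the 6 libraries of P7, P14 and P30, held 27.5% of the group's counts at P7, 34.1% at P14 and 41.8% at P30.

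Sizes in bp are given throughout as the span from start to end on the genome, not as the length of the RNA. The most abundant was a ring of chromosome 6 that spans 1892 bp on the plus strand (chr6:125660574-125662465, mm9). It had 9 and 12.5 counts in the P7 libraries, 26 and 53 at P14, and 71 and 101.5 at P30. In CPM this was 1310 ± 528 at P7, 2660 ± 637 at P14 and 3030 ± 718 at P30 (SD, n = 2 each), and the P30 and P14 values overlapped. Its neighbour on the same strand, chr6:125740259-125765617, had 11.5 and 6 counts at P7, 25 and 48.5 at P14 and then 38.5 and 57.5 at P30. For this neighbour mean CPM was higher at P14 than at either other age, at 2480 ± 510 (SD, n = 2). Both of its P30 values lay below both P14 values in CPM, and they overlapped after scaling by the trimmed mean of M-values (TMM).

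Next came a ring of chromosome 2 that spans 3134 bp (chr2:14902933-14906066, plus strand). Its counts were 3 and 2 in the P7 libraries, 20.5 and 51 at P14, and 99 and 82 at P30. Of the 10 most abundant it had the smallest summed P7 count apart from chr10:25161379-25180702, with 4.5 and 0 counts at P7, yet at P30 it had the highest mean, 3190 ± 468 CPM (SD, n = 2). The ring of chromosome 10 reached 17 and 20.5 counts at P14 and 52 and 56 at P30. Both libraries of P30 lay above both of P14 in CPM for the ring of chromosome 10, and not for that of chromosome 2, for which they did so after TMM scaling only.

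A further 3 rings had their highest mean CPM at P30. The 38030-bp circRNA chr14:22445941-22483970 (plus strand) had 5.5 and 6.5 counts at P7, 20 and 29.5 at P14 and then 67.5 and 97 at P30. The 50663-bp circRNA chr1:190239557-190290219 (plus strand) had 10 and 0 counts at P7, 5 and 27.5 at P14 and then 74 and 90 at P30. The 24634-bp circRNA chr4:102720815-102745448 (minus strand) had 3.5 and 5 counts at P7, 9 and 16 at P14 and then 66 and 64.5 at P30. For each of the 3, both P30 values lay above both P14 values in CPM and after TMM scaling. The ratio of mean CPM, P30 over P14, was 1.69 for the ring of chromosome 14, 2.83 for that of chromosome 1 and 2.7 for that of chromosome 4. The P14 and P7 values of the ring of chromosome 1 overlapped.

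The other 3 of the 10, like the second ring of chromosome 6, had lower mean CPM at P30 than at P14. The 5912-bp circRNA chr14:52740148-52746059 (plus strand), one of the highest at P7 with 18.5 and 8 counts, had 33.5 and 21.5 at P14 and 28.5 and 33 at P30. On the minus strand of chromosome 1, chr1:4187615-4221225 had 11.5 and 6.5 counts at P7, 16.5 and 39 at P14 and then 21 and 21 at P30. Beside it, chr1:4187615-4218700 had 7 and 9.5 counts at P7, 17 and 28.5 at P14 and then 24 and 16 at P30. The ratio of mean CPM, P30 over P14, was 0.527 for the ring of chromosome 14, 0.401 for chr1:4187615-4221225 and 0.453 for chr1:4187615-4218700, and in each case both P30 values lay below both P14 values. After TMM scaling the P30 and P14 values of the ring of chromosome 14 overlapped, and those of the rings of chromosome 1 did not.

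**Figure D2:**
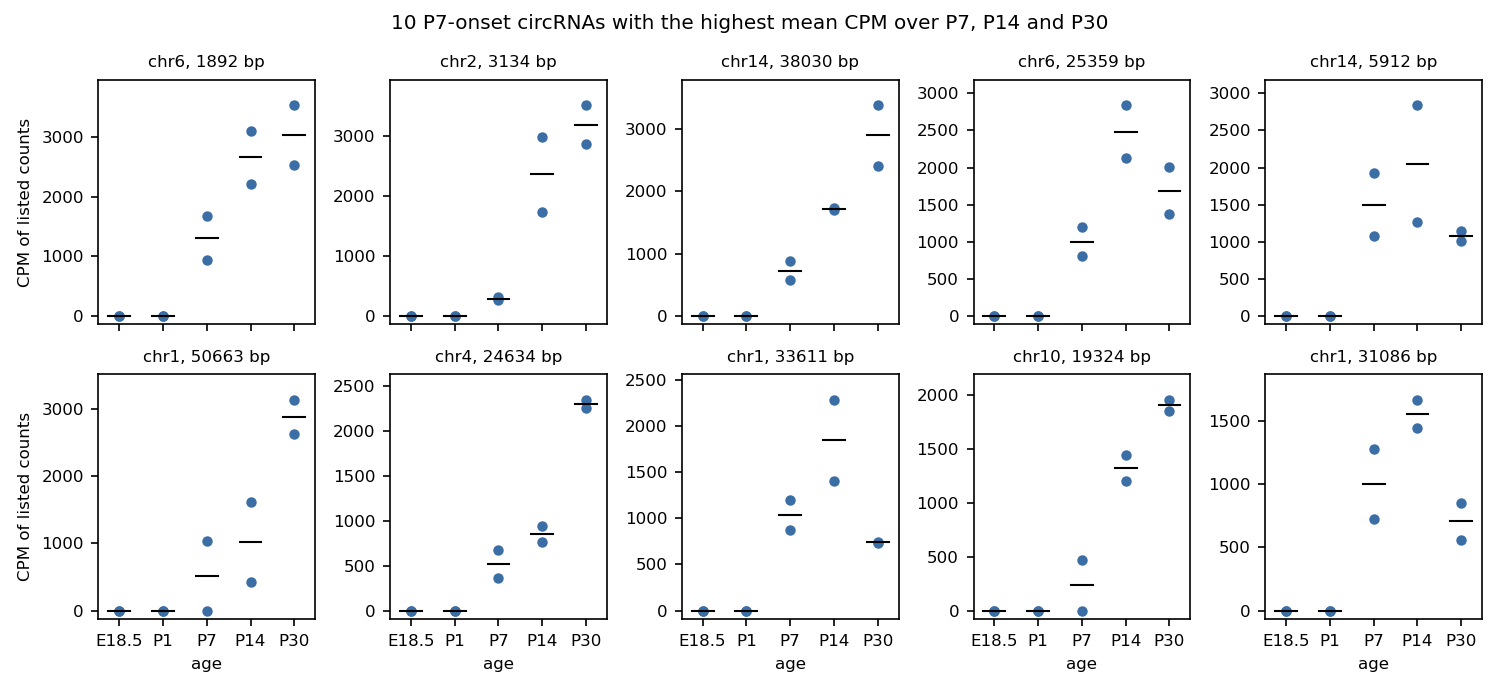
Each panel plots the CPM of 1 of the 10 most abundant P7-onset circRNAs in every library (circles) with the mean of each age (bars, n = 2), titled by chromosome and span. All stood at 0 at E18.5 and P1, and both P30 points of the rings of 50663 bp and 24634 bp lie above their P14 points, while those of the rings of 33611 bp and 31086 bp on chromosome 1 lie below.

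Among the 9 under a database ID, the most abundant was mmu_circ_0001583, with 5 and 3.5 counts at P7, 7 and 7.5 at P14 and then 8 and 10.5 at P30. Then followed mmu_circ_0001275 (5 and 0 counts at P7, 5 and 10 at P14, 14 and 12.5 at P30) and mmu_circ_0001766 (4 and 0 at P7, 10.5 and 6 at P14, 6.5 and 11.5 at P30). In mmu_circ_0000550 the counts were 2.5 and 0 in the P7 libraries, 6 and 7.5 at P14, and 12 and 15 at P30, and in mmu_circ_0000571 they were 2.5 and 0 in the P7 libraries, 5.5 and 12 at P14, and 8 and 12.5 at P30. None of these 5 ranked among the 30 most abundant P7-onset circRNAs. A database ID was carried by 12% of the P7-onset circRNAs, by 23.4% of the 77 circRNAs with onset at P14, and by 54% of the 428 that were above 0 in at least 1 library of E18.5 or P1 and in all libraries of P14 and P30. Over all circRNAs above 0 in any library it was 13.1%, and over the 580 above 0 in all P14 and P30 libraries it was 44.5%. These shares are descriptions.

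The lowest P7-onset circRNA was chr12:75027544-75033463 (plus strand), with 2 and 0 counts at P7, 3.5 and 3 at P14 and then 3 and 2.5 at P30. In all, 19 of the 75 held a value of 2, the minimum, in a library in which they were listed. Just outside the rule stood 56 circRNAs that differed from it by being above 0 in 1 library of E18.5 or P1, with between 2 and 16 counts there and a median of 3.5. A further 69 failed by a 0 in 1 library of P14 or P30, and the 77 circRNAs with onset at P14 failed by being at 0 in both P7 libraries. One of the 56 was chr14:52740148-52753534 (plus strand), with 9 counts in P1 replicate 2 and 57 and 42 counts at P7. Asking for both P7 libraries would leave 27 circRNAs, and asking for at least 5 counts wherever the rule asks for presence would leave 21.

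The rule asks for presence in all 4 libraries of P14 and P30 and for no difference between these ages. Since P14 totals were smaller, the minimum of 2 counts is a higher CPM at P14 than at P30. In CPM the rule thus asks for more at P14. The difference between P30 and P14 was tested across the whole table. The counts were fitted with edgeR's quasi-likelihood test over all 10 libraries, after TMM scaling and a filter on low counts. The filter, which asks for about 1075 CPM in at least 2 libraries of any age, was passed by 327 circRNAs, of which 14 were P7-onset. Of these 14, 5 reached that level in both libraries of P14 but not of P30, 2 in both of P30 but not of P14, and 5 at both ages. No P7-onset circRNA was called between P30 and P14 at an adjusted p under 0.05, where 2.75% of all 327 were called (9 circRNAs). At an unadjusted p under 0.05 there was 1 of the 14, against 13.5% of the 327, and DESeq2 called 0 of the 14, against 4.59% of the 327. Without the filter, all 75 entered the edgeR fit and 0 were called, against 0.0628% of 6365 circRNAs, with 2 at an unadjusted p under 0.05, against 1.9% of the 6365. With the P14 and P30 libraries fitted alone, 45 of the 75 passed the filter and 0 were called, against 0.413% of 484 circRNAs. In that fit 14 of the 45 (31.1%) had an unadjusted p under 0.05, against 21.1% of the 484. A p that misses the threshold does not show that the levels were equal.

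The highest fitted log2 fold change of P30 over P14 was 1.73, for chr4:102720815-102745448 (SE 0.58, edgeR adjusted p = 0.187). It was also 1.73 for chr1:190239557-190290219 (SE 0.80, edgeR adjusted p = 0.363). These were followed by chr14:22445941-22483970 at 1.08, chr10:25161379-25180702 at 0.88 and chr2:14902933-14906066 at 0.74. The lowest fitted values were −1.56 for chr15:35955563-35984633 on the minus strand (SE 1.06, edgeR adjusted p = 0.627), −1.10 for chr1:4216692-4301514, −1.04 for chr9:22448189-22463589, −0.99 for chr1:4187615-4221225 and −0.80 for chr1:4187615-4218700. The ring of chromosome 15 had 12.5 and 3.5 counts at P7, 19 and 14.5 at P14 and then 10 and 7.5 at P30, and that of chromosome 9 had 0 and 3.5 counts in the P7 libraries, 15 and 22.5 at P14, and 16 and 12 at P30. Of the 14 fitted values, 7 were above 0. The filter bears on these directions. The ring of chromosome 4 and chr1:190239557-190290219 reached its level in both P30 libraries but not in both P14 libraries. The reverse held for chr1:4216692-4301514, chr9:22448189-22463589, chr1:4187615-4221225 and chr1:4187615-4218700. The ring of chromosome 15 reached the level in P7 replicate 1 (1301 CPM) and P14 replicate 1 (1614 CPM), while its P30 values were 355.8 and 261.7 CPM. The signs and the ranking are thus a description of what passed the filter.

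By the order of the values alone, the P7-onset circRNAs were spread between P30 and P14 much as other circRNAs were. In CPM, 13 of the 75 (17.3%) had both P30 values above both P14 values, against 14.3% of the 580 circRNAs above 0 in all 4 of these libraries. Both P30 values lay below both P14 values for 26 of the 75 (34.7%), against 37.4% of the 580. The median log2 ratio of P30 to P14 was −0.29 for the 75 and −0.32 for the 580. Scaling moved this split. After TMM scaling, under which the median of the 580 was 0.01, 23 of the 75 (30.7%) lay above and 17 (22.7%) below, against 26.2% and 23.6% of the 580, and the median of the 75 was 0.07. All 13 that lay above in CPM also did so after TMM scaling, and 17 of the 26 that lay below still did. Among the 77 circRNAs with onset at P14, 10 (13%) lay above and 24 (31.2%) below in CPM. The difference between these groups of circRNAs was not tested.

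**Figure D3:**
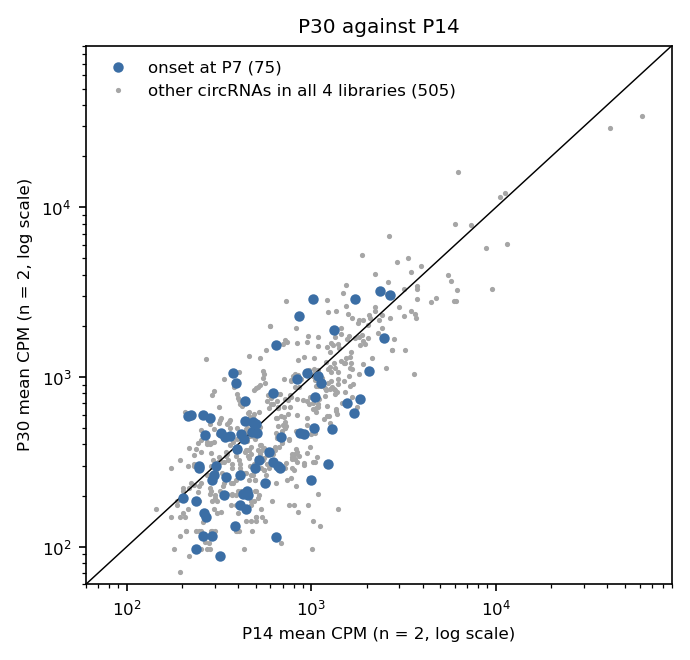
Mean CPM at P30 is plotted against mean CPM at P14 (n = 2 each, both axes on a log scale) for the 75 P7-onset circRNAs (large circles) and the other 505 circRNAs above 0 in all 4 libraries (small dots), with the line of equal values. The P7-onset circRNAs lie on both sides of the line within the cloud of the others, with means of at most 3190 CPM at P30 and 2660 CPM at P14.

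Some P7-onset circRNAs came from the same stretches of the genome, as did other circRNAs. Overlapping spans on 1 strand were joined into loci over the 5534 circRNAs with a position that were above 0 in any library. The 66 P7-onset circRNAs with a position fell into 53 loci on 17 chromosomes, and 8 loci held 2 or more of them, 21 in all. For comparison, the 322 with a position and above 0 in all P14 and P30 libraries fell into 248 loci. CircRNAs of 1 locus can share exons and reads and are not independent of one another. A start or an end was shared with at least 1 other listed circRNA by 53 of the 66 (80.3%), against 77.6% of the 322 with a position that were above 0 in all P14 and P30 libraries and 52.1% of all 5534. Sharing was thus about as frequent as in other circRNAs listed in every P14 and P30 library.

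The locus with most P7-onset circRNAs lies on the minus strand of chromosome 1 (chr1:4153936-4302803) and was singled out after its values were seen. It held 22 circRNAs, 5 of them P7-onset, and not 1 of the 22 was listed at E18.5 or P1. Summed over all 22, the locus had 58 and 40.5 counts at P7, 120 and 261.5 at P14 and then 137.5 and 113.5 at P30. In CPM it had 5740 ± 411 at P7, 12800 ± 3640 at P14 and 4430 ± 659 at P30 (SD, n = 2 each), so that both P30 libraries lay below both P14 libraries. Its 5 P7-onset circRNAs each had both P30 values below both P14 values in CPM, and 4 of them also after TMM scaling, the exception being chr1:4257550-4301514. Together with chr1:4216692-4301514 and chr1:4251608-4301514 this ring is 1 of 7 listed circRNAs with the same end at 4301514, of which the other 4 had at most 10.5 counts in any library. The ring chr1:4216692-4301514 has the longest span of the P7-onset circRNAs with a position, at 84823 bp. It had 11.5 and 2.5 counts at P7, 20.5 and 28 at P14 and then 21 and 13.5 at P30.

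At a locus on the plus strand of chromosome 14 (chr14:52738871-52778129), 3 of 18 circRNAs were P7-onset and 2 of the other 15 were listed at E18.5 or P1. The only counts before P7 were 11 in P1 replicate 2, and the locus summed to 124 and 71 counts at P7, 190.5 and 204 at P14 and then 323 and 310.5 at P30. In CPM it stood at 11200 ± 2360 at P7, 14100 ± 2980 at P14 and 11200 ± 465 at P30 (SD, n = 2 each). The P7-onset ring chr14:52740148-52746059 shares its start with 8 other circRNAs, more than any other P7-onset circRNA shares. Of these, the ring of 649 bp had 2 counts in P1 replicate 2, then 22.5 and 13 counts at P7, 48.5 and 57.5 at P14 and then 96 and 90.5 at P30. The ring of 13387 bp from the same start had 62 and 97 counts at P14 and 116 and 110 at P30, and the other 6 had at most 5 counts in any library.

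A locus on the plus strand of chromosome 10 (chr10:25161379-25232887) had a different course. Of its 14 circRNAs 3 were P7-onset, and its summed level was 3010 ± 740 CPM at P7, 10800 ± 55.1 at P14 and 14400 ± 1830 at P30 (SD, n = 2 each). Here 1 circRNA of 2382 bp was listed at every age, with 6, 3, 3 and 3 counts in the libraries of E18.5 and P1, then 27.5 and 11.5 counts at P7, 76.5 and 94 at P14 and then 244.5 and 209.5 at P30. The P7-onset ring of 19324 bp starts at the same base. On chromosome 13 (minus strand), the P7-onset ring chr13:59596694-59609417 had 3.5 and 0 counts at P7, 5.5 and 7 at P14 and then 21 and 10 at P30. It shares its start with 6 others, of which the one with the longest span, 49119 bp, was listed at E18.5 and P1 with 3 and 4 counts in 1 library each.

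Other loci differed in what preceded P7. At chr6:125658640-125830771, which holds both of the abundant rings of chromosome 6, none of 9 circRNAs was listed before P7. The 7 that were not P7-onset were first listed after P7. At chr11:108295440-108431737, in contrast, 9 of 13 circRNAs were listed at E18.5 or P1, with sums of 81.5 and 75 counts at E18.5 and 141 and 129.5 at P1. The P7-onset ring there, chr11:108364380-108392779, had 4 and 19.5 counts at P7, 2.5 and 6.5 at P14 and then 7.5 and 7.5 at P30, and shares its end with 4 others of which all were listed at E18.5 or P1. Of 43 loci that held P7-onset circRNAs and others as well, 18 had no circRNA at E18.5 or P1. Counted by circRNA, 25 of the 66 (37.9%) had others at their locus with none of those listed at E18.5 or P1. This compares with 29.8% of the 322 above 0 in all P14 and P30 libraries, 49.2% of the 59 with onset at P14 and 26.7% of all 5534. Over these 43 loci, 55 of 263 other circRNAs (20.9%) were listed at E18.5 or P1, against 31.5% of all 5534 with a position. These bases are unlike, because 2086 of the 5534 were alone at their locus. Another circRNA of the locus was listed at those ages for 31 of the 66 (47%), against 50.6% of the 322 above 0 in all P14 and P30 libraries and 33.9% of the 59 with a position and onset at P14.

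**Figure D4:**
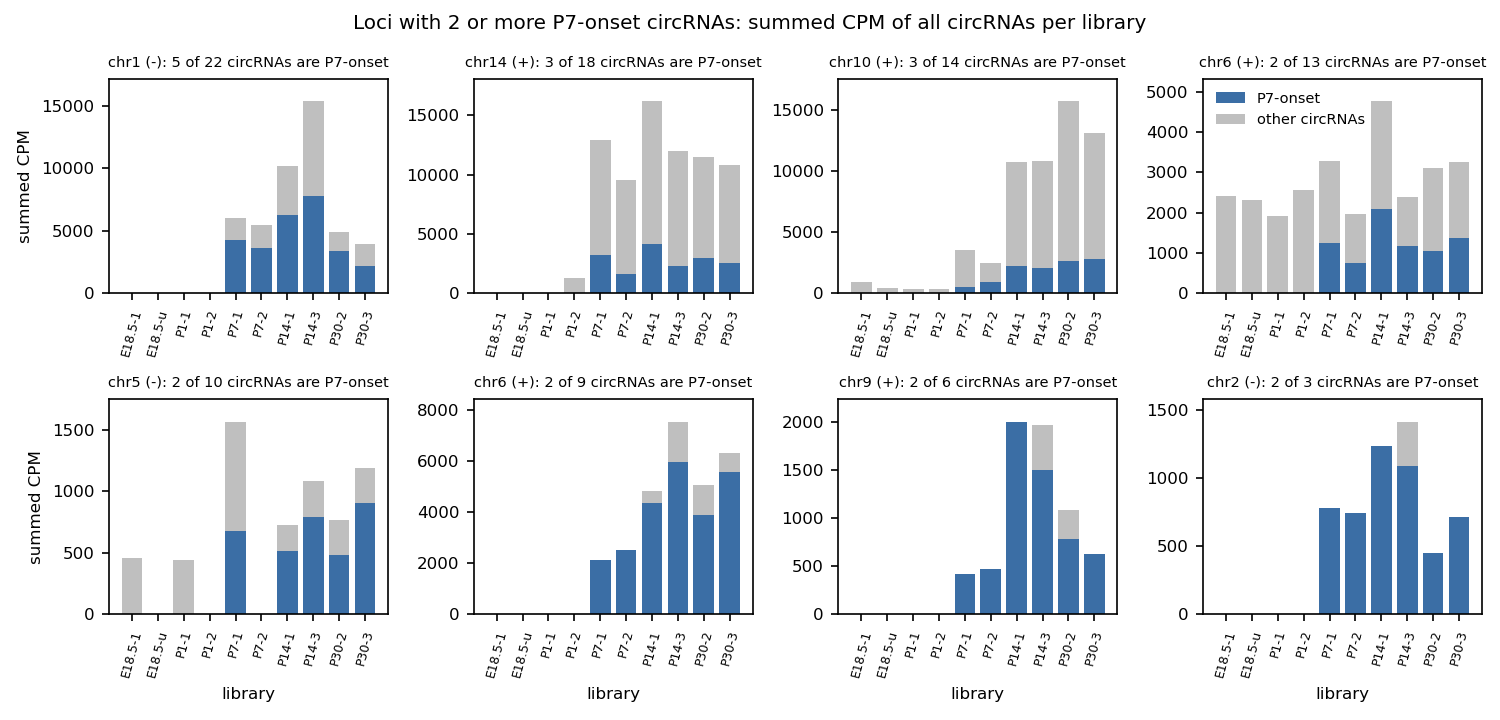
For the 8 loci with 2 or more P7-onset circRNAs, bars give the summed CPM of all listed circRNAs of the locus in each of the 10 libraries, split into P7-onset circRNAs (dark) and the others (light). At 4 of the 8 loci nothing was listed at E18.5 or P1, and at the locus of chromosome 1 both P30 libraries lie below both P14 libraries.

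The span from start to end on the genome, which can include introns absent from the ring itself, had a median of 11805 bp for the 66 P7-onset circRNAs with a position, against 14347 bp for the 59 with onset at P14 and 11282 bp for all 5534. It ran from 628 bp to 84823 bp. There were 2 spans under 1 kb, 29 from 1 to 10 kb, 29 from 10 to 50 kb and 6 of 50 kb or more, and 47% lay under 10 kb, against 45.8% of all 5534. The shortest, chr2:153146011-153146638 (plus strand), had 4 and 0 counts at P7, 9 and 9 at P14 and then 29 and 58.5 at P30. By strand, 39 lay on the plus and 27 on the minus strand (59.1% plus, against 52.1% of all 5534). Chromosome 1 held 9, chromosome 2 held 7 and chromosome 14 held 6.

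**Figure D5:**
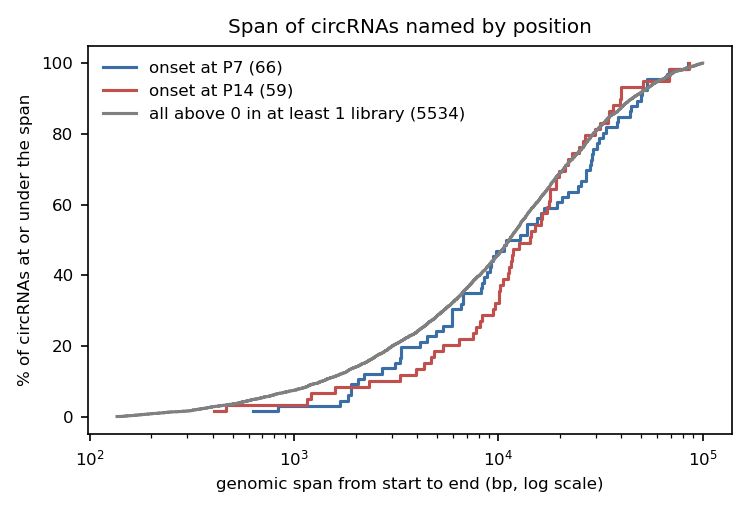
Cumulative percent of circRNAs is plotted against genomic span (bp, log scale) for the 66 P7-onset circRNAs, the 59 with onset at P14 and all 5534 above 0 in at least 1 library. The P7-onset curve lies below that of all circRNAs at short spans and slightly above it at 10 kb (47% against 45.8%). It lies below again at the median (11805 against 11282 bp) and at the upper quartile (29020 against 24760 bp).

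How the libraries of an age ranked the P7-onset circRNAs was compared at P14 and P30. Across the 75, which share libraries and are not independent, Spearman's rho between the counts of both libraries was 0.614 at P14 and 0.785 at P30. No such value is given for P7, since the rule, by allowing a 0 in 1 library, sets the libraries of P7 against each other. Between ages, rho of the mean CPM was 0.577 for P30 with P14. For the same reason no rho with the P7 means is given, since these means include each 0 that the rule allowed.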

How the data were processed

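The authors deposited estimated counts per circRNA, 1 column per library, with no normalization. The submitters' processing notes name Trimmomatic and mm9. Not given in the sources used here is which program called the circRNAs. An E18.5 column with a number that no label has was used as an unnumbered E18.5 library. Starts in the deposited names appear to count from 0, so printed starts are 1 higher. This rests on the few of 8054 names that equalled a GRCm38 exon start, 159 with 1 added and 1 without, in a build other than mm9.

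Values were rounded, filtered (filterByExpr by age, minimum count 10, minimum total 15), TMM-scaled and fitted with edgeR 4.0.16 (R 4.3.3), age as a factor, with Benjamini-Hochberg adjustment over all circRNAs tested. The test was checked on simulated data. DESeq2 1.42.0, other scalings and filters, a replicate block and each library left out were alternatives. CPM used totals of all listed counts. Each SE is the one implied by the edgeR test, the absolute log2 fold change divided by the square root of its F statistic. Members and comparisons were chosen with earlier results of these data known. Named were the 10 most abundant, the 5 largest and smallest fitted changes, the 5 most abundant under database IDs, the most shared starts and ends, the extremes of span and those near the rule's limits. Loci, named after their values were seen, are overlapping spans on a strand.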

Additional observations from a re-analysis of the deposited data

How the results depend on the processing

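The number of P7-onset circRNAs, 75, rests on the limits of the rule. It was 27 with both P7 libraries required, 21 with at least 5 counts where present, 33 at equal totals and 81 with up to 2 counts allowed at E18.5 and P1. With 1 library left out of the rule it ran from 46 to 108, and 46 was reached without P7 replicate 1. The ratio of the P30 to the P14 share, 0.932, was 1.06 with the counts of all 75 divided by those that passed the filter. It ran from 0.904 to 0.96 with 1 library left out. The cause of these shifts was not tested, beyond the fewer counts or libraries each allows.

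Between P30 and P14, 0 P7-onset circRNAs were called under all 20 alternatives, with the replicate block (9 numbered libraries) among them. Of the 20, 8 with the block included called 0 of all circRNAs, and these say nothing of the P7-onset ones in particular, and the other 12 called between 1 and 15. P14 and P30 share 1 number, the sources used here do not define the numbers, and the P1 and P7 differences between numbers 1 and 2 had r = 0.0218 over the 327 circRNAs. Number 3, shared by P14 and P30, was not checked. Of the 14 fitted values, 12 kept their sign throughout. That of chr6:125740259-125765617 (−0.23) was 0.08 without P14 replicate 3 and 0.07 without P30 replicate 2 (range −0.53 to 0.08 with 1 library left out), and that of chrX:81123386-81132572 (0.22) was −0.1 with library totals and −0.02 without P30 replicate 2 (range −0.02 to 0.48). The lowest adjusted p of the 14 in any setting was 0.0946 (edgeR, P14 and P30 libraries alone).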
